A study of Mus musculus with 2 samples.

Results

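The genes described here are 10 enzymes and carriers that make or activate steroid hormones in skin, taken from 23183 genes in an RNA-seq table of neonatal mouse epidermis. They were selected on their symbols with the FPKM values of both libraries already known, and all 10 had a row. Their differences are therefore a description. The table holds 2 libraries. One came from wild-type C57BL/6 epidermis (WT), and one from C57BL/6 epidermis homozygous for the L19M allele of Foxn1 (genotype Foxn1L19M/L19M), a transcription factor of keratinocytes and thymic epithelium. The sources used here do not give the age in days, sex or number of pups, or say whether pups were pooled. Each genotype has a single library, so the genotypes were not tested against each other. Every difference below compares 2 libraries and may hold variation in age, litter or preparation.

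Steroid synthesis starts when StAR, the product of Star, moves cholesterol to the inner mitochondrial membrane. There CYP11A1 cleaves the cholesterol side chain to give pregnenolone, with electrons that pass from ferredoxin reductase (Fdxr) to ferredoxin (Fdx1). Hsd3b enzymes turn pregnenolone into progesterone, and CYP11B1 carries out the last step to corticosterone, the main glucocorticoid of mice. HSD11B1 reactivates glucocorticoid from its inert 11-keto form, HSD11B2 does the reverse, and SRD5A1 reduces the ring of testosterone, progesterone and glucocorticoids. Skin is known to express parts of this pathway outside the adrenal gland and gonads.

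Both libraries were rich in keratinocyte RNA. Values are FPKM, fragments scaled by transcript length and library size, which allow levels of different genes to be compared per length. Values given as a pair are WT first and L19M second. Krt14, a keratin of basal cells, had 3408 and 3850 FPKM, and Krt10, a keratin of suprabasal cells, had 9337 and 8193 FPKM. The fibroblast collagen Col3a1 (268 and 278 FPKM) and the adipocyte gene Fabp4 (307 and 252 FPKM) showed that dermal RNA was present as well. The estimated depth was 14160429 fragments in the WT library and 19215695 in the L19M library. Foxn1 itself had 3.74 and 5.44 FPKM, which does not check an allele named for an amino acid change.

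The promoters of 3 members are shown because Cyp11a1 and Hsd3b6 had the largest differences between the libraries, in opposite directions, and Srd5a1 was among the most abundant members with little difference. Each line gives the 250 bases before the RefSeq transcript start, 5′ to 3′ on the gene's strand, from GRCm38.p6. The regions are chr9:58014702-58014951 (plus strand), chr3:98814444-98814693 (minus strand) and chr13:69611464-69611713 (minus strand). Capitals mark matches on either strand to AGGTCA (a half-site of nuclear receptors that the steroidogenic factor NR5A1 also reads), GGGCGG (the GC box) and AGAACA (a half-site of the glucocorticoid receptor), and no base lay in more than 1 match.
Cyp11a1: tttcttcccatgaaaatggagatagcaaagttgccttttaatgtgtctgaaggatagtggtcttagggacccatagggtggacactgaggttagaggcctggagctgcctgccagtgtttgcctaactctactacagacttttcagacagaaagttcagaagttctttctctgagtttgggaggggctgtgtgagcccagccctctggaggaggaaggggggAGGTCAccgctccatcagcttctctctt
Hsd3b6: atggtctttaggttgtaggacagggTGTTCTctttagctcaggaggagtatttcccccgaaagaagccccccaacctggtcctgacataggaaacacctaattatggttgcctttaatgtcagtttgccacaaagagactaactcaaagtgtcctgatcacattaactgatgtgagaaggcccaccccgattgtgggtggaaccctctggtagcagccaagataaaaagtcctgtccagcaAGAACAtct
Srd5a1: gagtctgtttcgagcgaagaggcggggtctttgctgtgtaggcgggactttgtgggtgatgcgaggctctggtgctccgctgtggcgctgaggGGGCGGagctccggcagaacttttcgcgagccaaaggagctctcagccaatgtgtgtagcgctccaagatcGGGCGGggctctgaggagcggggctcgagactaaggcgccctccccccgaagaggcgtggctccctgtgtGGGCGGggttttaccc

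Promoter sequence matched 7 of the 10 members in the RefSeq table, which lists 250 bases before and 50 bases after each start, with 2 starts for Cyp11a1. In that 300-base window the Cyp11a1 start nearest the gene's row held 1 AGGTCA, 28 bases before the start. Of all 32817 windows, 16.3% hold that motif. The same window held 2 matches to TATAA on either strand, the nearer (TTATA) 16 bases after the RefSeq start. The transcript in the table begins 65 bases after that start. The Fdx1 window held 1 such match, TTATA, 16 bases after its start. TATAA occurs in 24.9% of all windows. The Hsd3b6 window held 2 matches to AGAACA, the nearer 9 bases before the start, and 18.97% of all windows hold at least 1. GC boxes were found in the windows of Fdx1 (1 match), Fdxr (3 matches) and Srd5a1 (4 matches), but not in those of Hsd3b1, Hsd3b6, Hsd11b1 or the nearer Cyp11a1 start. The farther Cyp11a1 start held 1, and GC boxes occur in 35.6% of all windows. The Hsd11b1 window belongs to a start 21685 bases from that of the gene's row, so it does not describe that row's start. GACGC, a core motif bound by Foxn1, was found in the Fdxr window alone among the members, against 27.2% of all windows. Matches describe these letters only.

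Across the members, Cyp11a1 was higher and Hsd3b6 was lower in the L19M library, while the other measured members were nearly level. Genes averaging at least 1 FPKM across the libraries were treated as measured. A measured gene was called when the ratio of L19M over WT, after adding 1 FPKM to each value, was at least 2-fold in either direction. Of the 10 members 5 were measured, 1 was called higher, 1 was called lower and 3 were not called. Of the 11841 measured genes in the table, 0.532% were called higher and 1.71% lower. Another 3 members were detected below the minimum, and 2 were listed at 0 in both libraries. The median log2 ratio of the measured members was -0.18, beside 0.0049 for all measured genes. The members' FPKM summed to 52.4 in WT and 53.5 in L19M, so the sum hid opposite differences of its parts.

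**Figure D1:**
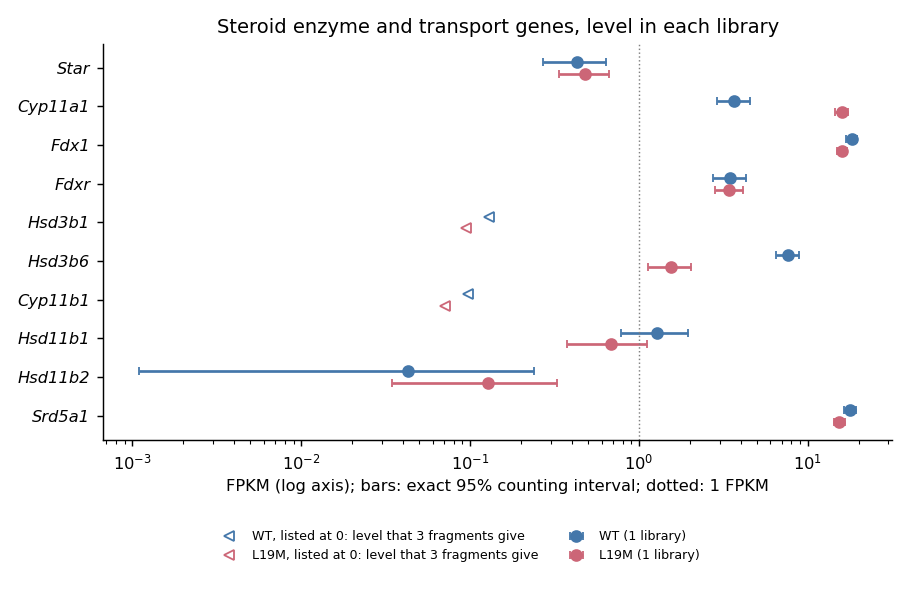
FPKM of the 10 members (log axis) in the WT and L19M libraries, with exact 95% counting intervals; open triangles mark genes listed at 0, placed at the level that 3 fragments would give. The intervals of the libraries are apart for Cyp11a1 (3.65 and 15.8 FPKM) and Hsd3b6 (7.61 and 1.54 FPKM), and they overlap for the other 6 detected members.

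Cyp11a1 encodes the enzyme of the first committed step of steroid synthesis. It lies on the plus strand of chromosome 9, from 58015017 to 58027023 (mm10), and its transcript has 9 exons. The WT library gave 3.65 FPKM, from 81 estimated fragments, and the L19M library gave 15.8 FPKM, from 476 fragments. The exact 95% counting intervals were 2.90 to 4.54 FPKM and 14.5 to 17.3 FPKM, and did not overlap. L19M was 4.34-fold above WT (interval 3.42 to 5.57), with a log2 ratio of 1.86 on the scale with 1 FPKM added. Its log2 ratio was the 32nd highest of 11841 measured genes. The authors' deposited table gives a fold of 3.65 for this gene from normalized values close to log2(FPKM + 1), so that fold is on the scale with 1 FPKM added, unlike the 4.34-fold of FPKM. All intervals given here reflect counting alone: PCR duplicates are not separate molecules, and animals may vary beyond them.

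The electron carriers of CYP11A1 did not differ in this way. Fdx1, the ferredoxin (minus strand of chromosome 9, 51943025 to 51963602), had 18.15 and 15.96 FPKM. That ratio of 0.879 had an interval of 0.801 to 0.965, just short of equality. Fdxr, the reductase (minus strand of chromosome 11, 115268025 to 115276969), had 3.45 and 3.43 FPKM. Its ratio was 0.994 (interval 0.739 to 1.34). Both carriers also serve other mitochondrial enzymes. Fdx1 was 4.97 times as abundant as Cyp11a1 in WT, and 1.01 times as abundant in L19M.

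Star, the cholesterol carrier, was detected at low levels in both libraries. It lies on the plus strand of chromosome 8, from 25808513 to 25815982. Star had 0.427 FPKM in WT (23 fragments) and 0.480 FPKM in L19M (35 fragments). The ratio of 1.12 had an interval of 0.645 to 1.99, so a difference of up to nearly 2-fold higher was not detectable at this depth.

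Hsd3b6, an enzyme that converts pregnenolone to progesterone, was lower in L19M. It lies on the minus strand of chromosome 3, from 98805504 to 98814443, in a cluster of related genes. The WT library gave 7.61 FPKM, from 172 fragments, and the L19M library 1.54 FPKM, from 47 fragments. The counting intervals of 6.52 to 8.84 FPKM and 1.13 to 2.04 FPKM did not overlap. The ratio of L19M over WT was 0.202 (interval 0.143 to 0.280), so WT was 4.95-fold above L19M, and the log2 ratio was -1.76. Its log2 ratio was the 107th lowest of the measured genes, and the authors' deposited table gives a fold of 0.297, also on the scale with 1 FPKM added. With 5 FPKM added in place of 1, Hsd3b6 had a log2 ratio of -0.95 and was not called, and with a minimum mean of 5 FPKM it was not measured.

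Hsd3b1, the neighbouring gene of the same function (minus strand of chromosome 3, 98852194 to 98859794), was listed at 0 in both libraries. Up to 3 fragments could go unseen at a count of 0, equal to 0.129 FPKM for WT and 0.0950 FPKM for L19M. The family is alike in sequence. The Hsd3b6 transcript was 80.8% identical to that of Hsd3b1, 90.9% to Hsd3b2 and 93.2% to Hsd3b3 over aligned bases in GENCODE M21. Of its 1753 windows of 50 bases, 84.0% occurred in none of 6 other Hsd3b transcripts. The sources used here do not say how fragments that fit several genes were assigned. Hsd3b2, Hsd3b3, Hsd3b4 and Hsd3b5 were also listed at 0 in both libraries, so Hsd3b6 held every fragment given to that part of the family. Hsd3b7, which acts on bile acid precursors, had 3.10 and 3.60 FPKM, without a call.

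The quotient of Cyp11a1 over Hsd3b6 RNA differed accordingly. Within the WT library Cyp11a1 had 0.479 times the FPKM of Hsd3b6, and within the L19M library it had 10.3 times. This quotient was computed after the values were seen, for the called members, which differed in opposite directions. It compares RNA levels only, and enzyme activity was not measured.

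**Figure D2:**
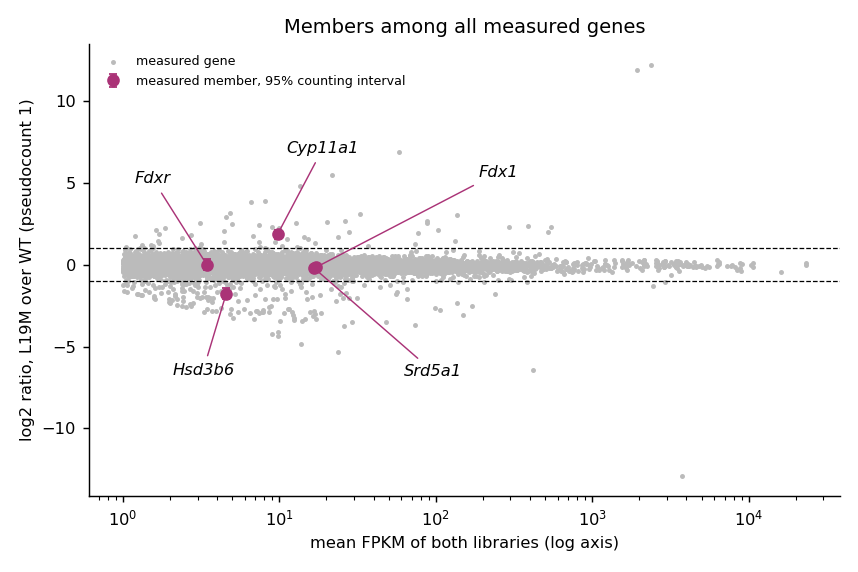
Log2 ratio of L19M over WT (1 FPKM added) against mean FPKM (log axis) for 11841 measured genes in grey and the 5 measured members in purple with 95% counting intervals; dashed lines mark 2-fold. Cyp11a1 (1.86) lies above the upper line and Hsd3b6 (-1.76) below the lower one, while Fdx1, Fdxr and Srd5a1 lie between them.

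The genes of the last step to glucocorticoid and of its reactivation and inactivation were low or at 0. Cyp11b1 (minus strand of chromosome 15, 74834892 to 74841643), the enzyme of the last step to corticosterone, was listed at 0 in both libraries, which allows up to 0.0967 FPKM for WT and 0.0714 FPKM for L19M. Hsd11b1 (minus strand of chromosome 1, 193221641 to 193264045), which regenerates active glucocorticoid, had 1.27 FPKM in WT (21 fragments) and 0.687 FPKM in L19M (15 fragments). Its mean of 0.979 FPKM lay just under the minimum. The ratio of 0.540 had an interval of 0.253 to 1.07, which held equality, so a difference in Hsd11b1 was not detectable at this depth.

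Hsd11b2 (plus strand of chromosome 8, 105518746 to 105523988), which inactivates glucocorticoid, rested on 1 fragment in WT (0.0430 FPKM) and 4 in L19M (0.127 FPKM). The ratio of 2.95 had an interval of 0.292 to 146 and gives no direction. Hsd11b1 was thus the more abundant of the opposing enzymes in both libraries, and their counting intervals did not overlap within either library.

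Srd5a1 (minus strand of chromosome 13, 69573449 to 69611463), the 5alpha-reductase, had 17.8 and 15.4 FPKM. The ratio of 0.863 had an interval of 0.774 to 0.962, a small difference outside counting error and far under the 2-fold rule. Its relative Srd5a2 was listed at 0 in both libraries. Srd5a3, which acts in dolichol synthesis, had 11.03 and 9.42 FPKM.

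The order of the members changed between the libraries by the moves of Cyp11a1 and Hsd3b6. In WT, Fdx1 and Srd5a1 led with overlapping counting intervals, followed by Hsd3b6. Cyp11a1 and Fdxr came next, also overlapping, and then Hsd11b1, Star and Hsd11b2. In L19M, Fdx1, Cyp11a1 and Srd5a1 shared the top with overlapping intervals. Fdxr, Hsd3b6 and Hsd11b1 followed with intervals apart, and those of Hsd11b1 and Star overlapped.

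**Figure D3:**
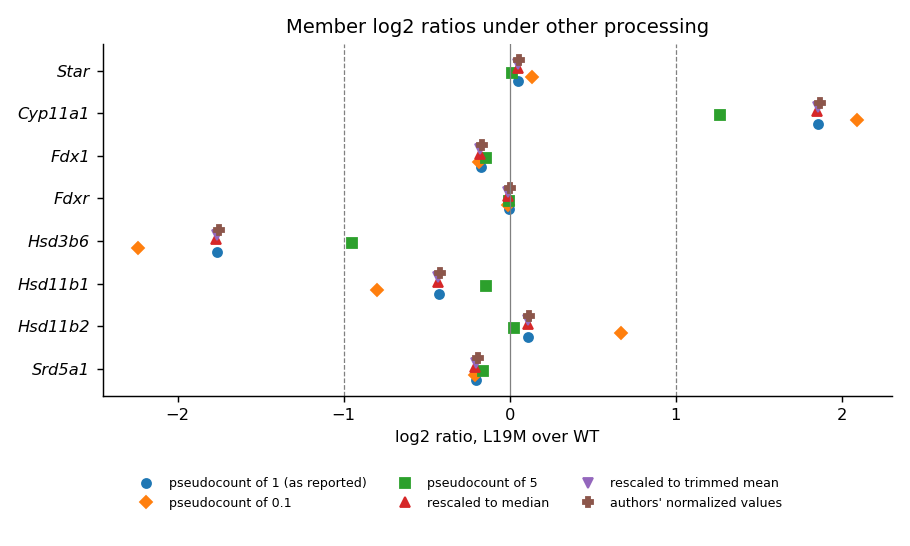
Log2 ratio of L19M over WT for the 8 detected members under the reported processing (1 FPKM added) and under 5 other choices of pseudocount, scaling or values; dashed lines mark 2-fold. Cyp11a1 stays past the upper line (1.27 to 2.09), and Hsd3b6 (-2.24 to -0.95) comes inside the lower line with a pseudocount of 5.

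The rest of the pathway showed few differences of this size. In 10 further lists, 67 of 118 genes were measured, 38 with log2 ratios above 0 and 29 below, and the median was 0.0041. Of the measured genes 3 were called higher (Akr1d1, Fkbp5 and Zbtb16) and none lower, beside 0.532% and 1.71% of all measured genes.

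Genes that supply cholesterol to mitochondria were close to level, with 10 of 13 measured genes above 0, none called and a median log2 ratio of 0.05. Vdac1, a channel of the outer mitochondrial membrane, had 155 and 173 FPKM, and the cholesterol-binding protein gene Tspo had 80.3 and 84.2 FPKM. Scarb1, a lipoprotein receptor, had 9.29 and 13.02 FPKM. Soat1, which stores cholesterol as ester, had 3.16 and 1.46 FPKM, a ratio of 0.460 (interval 0.366 to 0.577) that missed the 2-fold rule with 1 FPKM added. Npc2 (34.2 and 42.7 FPKM), a carrier of cholesterol in lysosomes, was nearer to level.

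Other P450 enzymes of the pathway and their partners had no call among 6 measured genes, 3 above 0 and 3 below, and a median of -0.02. Cyp17a1, which makes androgen precursors, had 11.8 FPKM in WT (273 fragments) and 6.73 FPKM in L19M (211 fragments). It was thus above Cyp11a1 in WT and below it in L19M. The ratio of L19M over WT was 0.571 (interval 0.475 to 0.686). Por, the reductase that feeds electrons to microsomal P450 enzymes, had 22.3 and 16.6 FPKM, and H6pd, which makes the cofactor of HSD11B1, had 3.64 and 5.12 FPKM. Cyb5a (249 and 241 FPKM), Cyb5b (16.98 and 18.5 FPKM) and Cyb5r3 (48.23 and 48.25 FPKM), of the cytochrome b5 electron carrier system, were close to level. The aldosterone synthase Cyp11b2 was listed at 0 in both libraries. Cyp21a1, the steroid 21-hydroxylase, had 0.0411 and 0.0304 FPKM (1 fragment in each library), and the aromatase Cyp19a1 had 0.130 and 0.0241 FPKM. These 3 were below the minimum and are named after their values were seen.

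Among enzymes that interconvert or clear steroids, Akr1d1 was the 1 gene called, with 6.12 FPKM in the WT library and 14.7 FPKM in the L19M library. Akr1d1 encodes the 5beta-reductase known from bile acid and steroid clearance in liver, and L19M was 2.41-fold above WT (interval 2.07 to 2.82). With 5 FPKM added in place of 1 it was not called. In the same list of reductases, with 3 of 11 genes measured, Akr1c18, which inactivates progesterone, had 4.10 and 1.95 FPKM (ratio 0.476, interval 0.304 to 0.736) and missed the 2-fold rule. The list's median was -0.21, with 1 gene above 0 and 2 below. The 17beta-hydroxysteroid dehydrogenases had no call among 8 measured genes, 3 above 0 and 5 below, and a median of -0.03. Of these, Hsd17b12, which also elongates fatty acids, had 96.0 and 80.4 FPKM, and Hsd17b10 had 52.5 and 51.7 FPKM. H2-Ke6, also named Hsd17b8, had 31.2 and 22.0 FPKM. Hsd17b14 (17.1 and 16.1 FPKM) and Hsd17b11 (3.08 and 3.25 FPKM) were closer.

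Sulfation and clearance genes had no call among 9 measured, 2 above 0 and 7 below, with a median of -0.02. Sult2b1, the cholesterol sulfotransferase of cornifying keratinocytes, had 228 and 226 FPKM. Hsdl2 had 65.2 and 52.8 FPKM. The P450 genes Cyp2b10 (10.6 and 6.68 FPKM) and Cyp3a13 (4.03 and 2.58 FPKM) were further apart, both below 2-fold, and Papss2, which makes the sulfate donor, had 0.957 and 1.47 FPKM.

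Among steroid receptors, Nr3c1, the glucocorticoid receptor, had 14.5 and 15.7 FPKM, and Nr3c2, Esr1, Esr2 and Pgr were below the minimum. These receptors are named after their values were seen. Fkbp5, a co-chaperone of the glucocorticoid receptor and a target gene of it, was the called gene of that list, with 10.7 FPKM in the WT library and 36.9 FPKM in the L19M library (ratio 3.44, interval 3.14 to 3.78). The list had 3 of 6 measured genes above 0 and a median of -0.02. The chaperones Hsp90ab1 (641 and 717 FPKM), Hsp90aa1 (166 and 131 FPKM) and Fkbp4 (104 and 93.5 FPKM) were not called.

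Of the genes that respond to glucocorticoid, 12 of 15 measured genes had log2 ratios above 0, beside 6014 of all 11841 measured genes. The median was 0.35, beside 0.0049 for all measured genes. In the list 2 genes were called higher, beside 0.532% of all measured genes, and Fkbp5 is also counted among the receptors and co-chaperones. The list was chosen with earlier results of these data known, so these values are a description. Next to Fkbp5, the transcription factor gene Zbtb16 had 0.561 FPKM in WT (39 fragments) and 2.85 FPKM in L19M (269 fragments), a ratio of 5.09 (interval 3.63 to 7.31). Zbtb16 was not called with 5 FPKM added in place of 1, and was not measured with a minimum mean of 5 FPKM. Klf9 (2.80 and 4.26 FPKM) and Angptl4 (8.12 and 12.2 FPKM) were above 0 without a call. Mt2 (232 and 235 FPKM) and Anxa1 (1309 and 1210 FPKM), the most abundant of the list, were close to level.

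Transcription factors known to drive steroidogenic genes had no call among 7 measured, 4 above 0 and 3 below, with a median of 0.0011. Nr5a1, the steroidogenic factor of adrenal gland and gonads, was listed at 0 in both libraries, and Nr5a2 was at 0 in WT and at 0.0152 FPKM in L19M, from 1 fragment. Both are named after their values were seen. Cebpa had 214 FPKM in each library and Cebpb had 164 and 139 FPKM. Nr4a1, an immediate early nuclear receptor, had 2.21 and 3.95 FPKM, Gata6 had 1.99 and 0.889 FPKM, and Crem had 2.06 and 2.80 FPKM. In the list of the local hormone axis 1 of 15 genes was measured, the melanocortin receptor gene Mc1r, at 3.33 FPKM in each library. Crh was listed at 0 in both libraries, and Pomc had 0.353 FPKM in WT and was listed at 0 in L19M. Both are named after their values were seen.

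**Figure D4:**
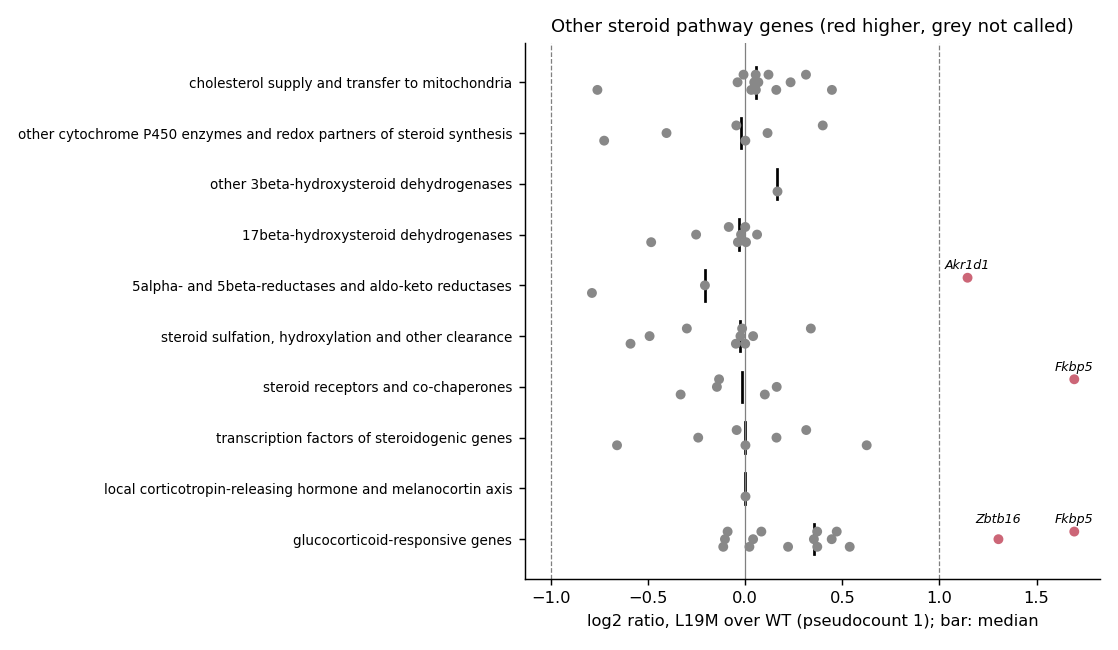
Log2 ratio of L19M over WT (1 FPKM added) for each measured gene of 10 steroid pathway lists; black bars are list medians and dashed lines mark 2-fold. Akr1d1 (1.14), Fkbp5 (1.69, in 2 lists) and Zbtb16 (1.30) lie past the upper line, and no gene lies past the lower one.

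Markers of other skin cells also differed between the libraries. In bulk RNA, fewer cells of a type and less RNA per cell cannot be told apart. Markers of sebocytes, the lipid-forming cells of the sebaceous gland, were lower together with Hsd3b6. Of 16 measured sebocyte markers 15 had log2 ratios below 0 and 6 were called lower, with a median of -0.67. The 2 most abundant were Fabp5 (2281 and 2801 FPKM), which keratinocytes also express, and Krt79 (517 and 247 FPKM). The list summed to 3310 and 3417 FPKM, and without Fabp5, left out after the values were seen, to 1029 and 616 FPKM. Krt79 alone held the larger part of that last difference. No marker of that list was listed at 0 in both libraries. Their part in the difference of Hsd3b6 was not tested.

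Hair shaft and matrix markers were mostly lower as well. Of 10 measured markers 9 were below 0 and 7 were called lower, and the list summed to 165 and 36.2 FPKM. Lef1 (7.64 and 14.8 FPKM), named after its values were seen, lay above 0. Krt33a had 31.8 and 2.27 FPKM and Krt35 had 26.3 and 5.89 FPKM. Of 10 measured adipocyte markers 8 were below 0 and 4 were called lower. That list summed to 436 and 324 FPKM, with Fabp4 given above and Cfd at 28.9 and 26.4 FPKM. Pck1 (2.64 and 3.27 FPKM) and Slc2a4 (1.19 and 1.59 FPKM), named after their values were seen, lay above 0. The part of either cell type in the difference of Hsd3b6 was not tested.

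Beside the higher Cyp11a1, mast cell and endothelial markers lay mostly above 0. Of 6 measured mast cell markers 5 were above 0 and 1 was called higher, and the list summed to 106 and 135 FPKM. Cpa3 had 34.8 and 51.7 FPKM and Cma1 26.3 and 36.0 FPKM. Mcpt4 (24.2 and 15.6 FPKM, ratio 0.647, interval 0.540 to 0.774), named after its values were seen, lay below 0. All 5 measured endothelial markers were above 0 without a call, with a sum of 12.5 and 19.01 FPKM, among them Pecam1 (4.53 and 6.28 FPKM) and Cdh5 (2.54 and 3.35 FPKM). Of 14 fibroblast markers 10 were above 0 with no call, and they summed to 1089 and 1302 FPKM, with Vim at 258 and 423 FPKM and a sum of 831 and 880 FPKM without it. Lum (46.7 and 29.6 FPKM) and Dpp4 (10.3 and 5.85 FPKM), named after their values were seen, lay below 0. The part of these cells in the difference of Cyp11a1 was not tested.

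Other immune markers lay below 0 in the majority. Of 9 measured T cell markers 7 were below 0 and 1 was called lower, with sums of 51.2 and 40.9 FPKM, or 32.8 and 16.9 FPKM without Thy1, with Thy1 at 18.3 and 24.0 FPKM and Cd3g at 13.9 and 4.81 FPKM. Of 8 measured markers of Langerhans cells and macrophages 6 were below 0 and 3 were called lower. They summed with the list to 290 and 142 FPKM, or 213 and 86.2 FPKM without Epcam. Cd74 had 86.7 and 26.8 FPKM and Epcam 77.8 and 56.3 FPKM. Cd207, a Langerhans cell marker of the list, was below the minimum, at 0.267 and 0.0394 FPKM (5 and 1 fragments). It is named after its values were seen. Cd68 (7.33 and 9.24 FPKM) and Lyz2 (10.4 and 17.5 FPKM), named after their values were seen, lay above 0. Keratinocyte lists had no call. Basal markers summed to 7663 and 8262 FPKM, with Krt5 at 3262 and 3380 FPKM, and suprabasal markers to 49566 and 42001 FPKM, with Krtdap at 18400 and 13729 FPKM. In a list of kidney and adrenal genes none of 6 was measured, and Akr1b7, Cyp11b2, Umod and Aqp2 were listed at 0 in both libraries. Mc2r (0.202 and 0.261 FPKM, from 5 and 8 fragments) and Slc12a1 (0.0636 and 0.0117 FPKM) were detected below the minimum.

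**Figure D5:**
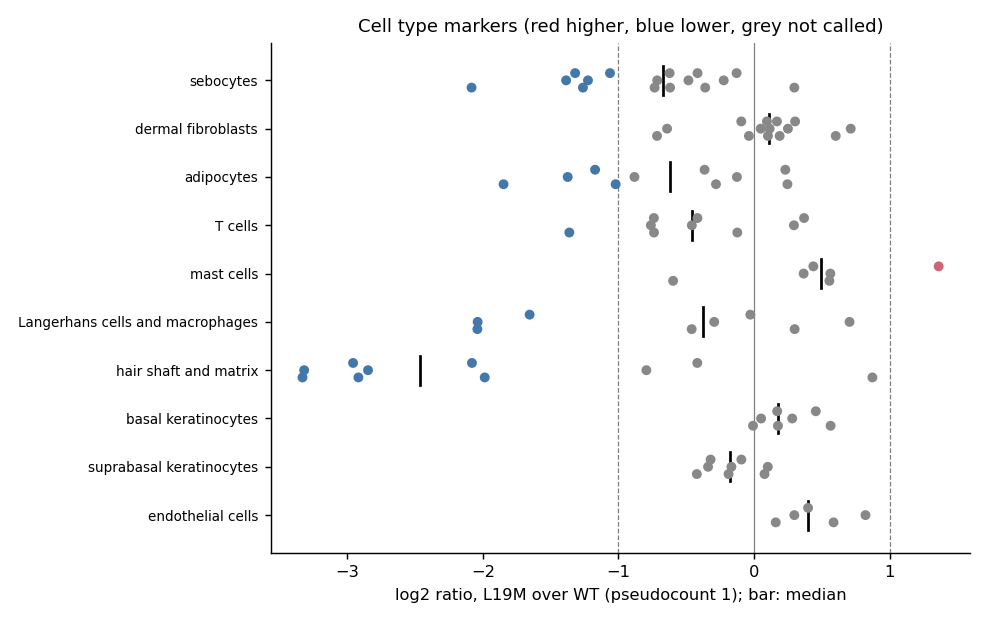
Log2 ratio of L19M over WT (1 FPKM added) for each measured marker of 10 cell types; black bars are medians and dashed lines mark 2-fold. Medians to the left are those of hair (-2.46), sebocyte (-0.67), adipocyte (-0.62), T cell (-0.46) and Langerhans cell and macrophage (-0.38) markers. The medians of mast cell (0.50) and endothelial (0.40) markers lie to the right, while keratinocyte markers stay between the dashed lines.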

How the data were processed

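The members and gene lists were chosen with earlier results of these data known. RNA was extracted with TRIzol, selected for poly(A) and made into directional libraries, per the labels' protocols. The authors deposited FPKM per gene for each library under a heading of raw data. They also deposited log2 values, quantile-normalized per the file headers and information sheet, which lay within 0.0476 of log2(FPKM + 1), and a fold ratio from those values. Per the submitters' processing notes, Cufflinks, edgeR and R 3.5.1 were among the tools, with no role stated and no aligner named in the sources used here. The information sheet gives mm10 while those notes list GRCm39. RefSeq for GRCm38, the assembly of mm10, shares 21982 symbols with the table, and for 95.5% of them the starts differed by at most 5000 bases. Coordinates are therefore printed as mm10, with the first base as 1.

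For each gene log2((FPKM in L19M + 1)/(FPKM in WT + 1)) was computed, which understates the difference of low genes. The planned rule for normalized values applied, and no test was run. Low FPKM values of transcripts of at least 1000 bases stepped as whole fragments. Fitting those steps gave the library totals and a constant taken off each length (207 bases in WT, 211 in L19M). At up to 20 fragments, the share of values within 0.1 of a whole number was 84.0% for WT and 83.5% for L19M. Exact 95% intervals came from these estimated fragments (Poisson for FPKM, Clopper-Pearson for ratios). The depth fit, the fold rule and the ratio intervals were tested on libraries simulated with counting variation alone. Variation between animals or preparations was not covered. All members were named. Of each pathway list up to 4 measured genes with the largest absolute log2 ratio and the 2 most abundant were named, and of each marker list the 2 most abundant; 1 gene this rule names is not reported here. No row matched 2 of the list entries, which were not used here. Alternatives were other pseudocounts, minimums, scalings, a fold of 1.5 and the authors' normalized values. Python 3.11.15, numpy 2.4.6, pandas 2.3.3, scipy 1.17.1, Biopython 1.88 and matplotlib 3.10.9 were used.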

Additional observations from a re-analysis of the deposited data

How the results depend on the processing

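Of 40 log2 ratios of members recomputed under other pseudocounts, scalings and the authors' normalized values, 36 stayed within their counting interval. The 4 outside all came from other pseudocounts: Hsd3b6 with 0.1 and with 5, Cyp11a1 with 5 and Hsd11b2 with 0.1. None of the called members changed direction. Fdxr, close to 0, had the other sign (0.0022) with the authors' normalized values. Cyp11a1 ranged from 1.27 to 2.09 and Hsd3b6 from -2.24 to -0.95, both extremes set by the pseudocount. The count of members called lower was 0 with a pseudocount of 5 and 0 with a minimum mean of 5 FPKM. Of the pathway genes, 3 were called lower with a pseudocount of 0.1 and 5 at a fold of 1.5, and 1 (Fkbp5) was called higher with a pseudocount of 5. Among all measured genes, 63 higher and 203 lower calls became 120 and 297 with a pseudocount of 0.1, 39 and 96 with a pseudocount of 5, 41 and 107 with a minimum of 5 FPKM, and 236 and 482 at a fold of 1.5. Rescaling to the median or trimmed mean moved ratios by at most 0.0060 on the log2 scale. No paired analysis was possible because each genotype has 1 library, and no library could be left out. Depth limits Star, Hsd11b1 and Hsd11b2, with 1 to 35 fragments per library.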

Other observations

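No measured gene next to Cyp11a1 was called, and no gene next to Hsd3b6 was detected. Within 100 kb of Cyp11a1 lay 4 other genes, 2 of them measured and none called. Ubl7 had 35.7 and 42.0 FPKM (WT first), and Sema7a, which encodes a membrane-anchored semaphorin, had 3.01 and 2.58 FPKM. Ccdc33, 1.66 kb away on the other strand, was listed at 0 in both libraries. Around Hsd3b6, the 4 other genes within 100 kb (Hsd3b2, Hsd3b3, Hsd3b1 and Hao2) were all listed at 0 in both libraries. These neighbours were named after their values were seen.

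Cyp11a1, at 15.8 FPKM in the L19M library, was found beside Nr5a1 and Cyp11b1 listed at 0 and Star at 0.480 FPKM. No explanation of this combination was tested.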
